A study of Rattus norvegicus with 28 samples.

Results

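Rat neural progenitor cells exposed to uninjured spinal cord and labelled 2 weeks were set against the same cell type kept in culture, with 4 libraries in each group. These 8 libraries, chosen by their exposure labels, are 8 of the 28 in the series. Week 2 exposure carries only a spinal cord label without mention of injury and was read as uninjured, and culture carries only a label for culture conditions. All 28 libraries are labelled neural progenitor cells from Rattus norvegicus, in 7 groups of 4: uninjured and injured cord, each at 2, 3 or 4 weeks, and culture. The title and design line concern transplantation into injured spinal cord in rodents. No strain, age, donor, transgene or sort is given in the labels, nor is the event from which weeks are counted. The labels do not say whether the libraries within a group are from different animals or cultures. On that account p-values measure only the spread between these libraries, which may be technical.

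Neural progenitor cells are dividing cells that can give rise to neurons, astrocytes and oligodendrocytes. In culture they are commonly kept dividing with growth factors, and after growth factors are withdrawn or cells are grafted they can leave the cell cycle and differentiate. Spinal cord tissue itself holds neurons, myelinating oligodendrocytes, astrocytes, microglia, blood vessels and blood, and the labels do not say whether progenitors were separated from it. A change in the cells therefore cannot be told apart from RNA of cord tissue, and in bulk RNA fewer cells of a type cannot be told apart from less RNA per cell.

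The deposited table names genes only by rat Ensembl identifier, and 0 of 32545 identifiers matched a symbol in the reference table used here. The cell type label could thus not be checked against marker genes, the 25 lists of cell type and pathway genes could not be applied, and genes are described by their level, direction and distribution over libraries. The identifiers printed are 2 that rose and 2 that fell.

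Exposure libraries were far shallower than culture. They held 189626, 298694, 426992 and 205441 counts in uninjured week 2, against 6005847, 5273204, 5553809 and 6908508 counts in culture, so depth and exposure cannot be told apart at full depth. Comparisons are therefore also given with culture counts thinned at random to the week 2 totals. Reads carry no molecular identifiers and may repeat a molecule, so intervals and floors cover counting error only.

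**Figure D1:**
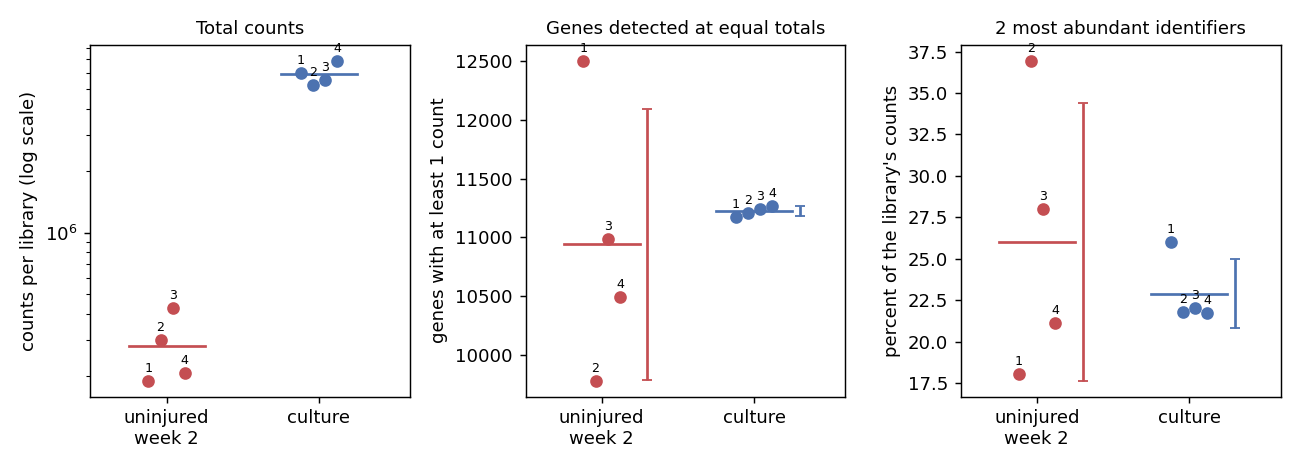
Library measures in uninjured week 2 (left, red) and culture (right, blue); each point is 1 library with its replicate number, horizontal lines are means, and vertical bars in the panels after the first are SDs (n = 4). Panels show total counts on a log axis, genes with at least 1 count after all libraries were thinned to about 189626 counts, and the percentage of counts in the 2 most abundant identifiers; week 2 libraries range from 9780 to 12506 genes at equal totals and culture libraries from 11174 to 11268.

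At equal totals, week 2 and culture libraries detected similar mean numbers of genes, but week 2 libraries differed far more among themselves. Thinned to about 189626 counts, uninjured week 2 libraries 1 to 4 detected 12506, 9780, 10984 and 10496 genes, against 11174, 11210, 11240 and 11268 in culture. The week 2 libraries lie on both sides of the culture libraries. The means were 10940 ± 1150 genes in week 2 and 11220 ± 40.3 genes in culture (SD, n = 4 each; exact permutation test, two-sided, p = 0.6). Genes seen with a single count numbered 1827 ± 177 in week 2 and 2050 ± 71.5 in culture (SD, n = 4 each; exact permutation p = 0.0857, adjusted over 5 library measures 0.428). Genes with at least 10 counts numbered 3514 ± 418 in week 2 and 3647 ± 92 in culture (SD, n = 4 each; exact permutation p = 0.514). The smallest p that 4 libraries against 4 allow is 0.0286.

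The same 2 identifiers took the most counts over the 8 libraries. They held 18.04, 36.95, 27.99 and 21.14% of the counts in week 2 libraries 1 to 4, against 26.0, 21.78, 22.03 and 21.73% in culture (exact permutation p = 0.6). Week 2 replicate 1 had the lowest share, replicate 2 had the highest, and the groups overlap. The next 98 identifiers held 20.64 ± 2.29% of the remaining counts in week 2 and 19.34 ± 0.153% in culture (SD, n = 4 each; exact permutation p = 0.314). None of these 5 library measures passed the test.

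The spread between replicates was several times larger at week 2. With every library at the week 2 totals, the biological coefficient of variation (the spread of a gene between replicates beyond counting error) was 58.0% within uninjured week 2, 23.5% within uninjured week 3, 21.3% within uninjured week 4 and 11.1% within culture. These values rest on 7166, 7243, 7393 and 7198 genes with at least 20 counts over the group. Of 3772 genes with at least 50 counts over the week 2 group, 75 (1.99%) had 0 counts in at least 1 library, against 2 of 4055 (0.0493%) in thinned culture. Those zeros fell in replicates 1, 2 and 4 (20, 27 and 29 genes), with 2 in replicate 3, the deepest week 2 library. Genes seen in 1 library alone numbered 4183 in week 2, of which 1848 were in replicate 1, against 1976 in thinned culture. Across the group, 16610 genes had a count in some week 2 library and 7005 in all 4, against 14409 and 9467 in thinned culture. Uninjured week 4 at the same totals was close to week 2 in 2 of these counts, with 16605 genes in some library and 3472 in 1 library alone, 2179 of them in its replicate 3, but had 9576 genes in all 4.

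No pair of libraries was identical. Chi-square statistics for replicate pairs, divided by their degrees of freedom, ran from 6.88 to 12.9 in week 2 and from 1.51 to 1.82 in thinned culture, above the value of 1 that sampling noise gives.

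Across 6006 genes at week 2 totals, week 2 libraries resembled libraries of the later uninjured weeks more than culture. Mean Spearman correlations of log2 CPM (counts scaled to a common library total) were 0.662 with uninjured week 3, 0.692 with uninjured week 4 and 0.345 with culture, over 16 pairs each. The pairs with week 3 ran from 0.581 to 0.745, those with week 4 from 0.619 to 0.800 and those with culture from 0.291 to 0.380, so for week 2 the pairs with culture did not overlap those with later weeks. Uninjured weeks 3 and 4 had mean correlations with culture of 0.321 and 0.365, on either side of the week 2 value. Week 2 libraries correlated with one another at 0.573 to 0.668, mean 0.626, below their mean with weeks 3 and 4. Pairs within culture ran from 0.895 to 0.936. Replicate 3, the deepest, had the highest mean correlation of the 4 week 2 libraries both with its own group, at 0.663, and with week 4, at 0.764. Genes are not independent replicates, and all pairs of a library share its depth, so no p is attached.

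**Figure D2:**
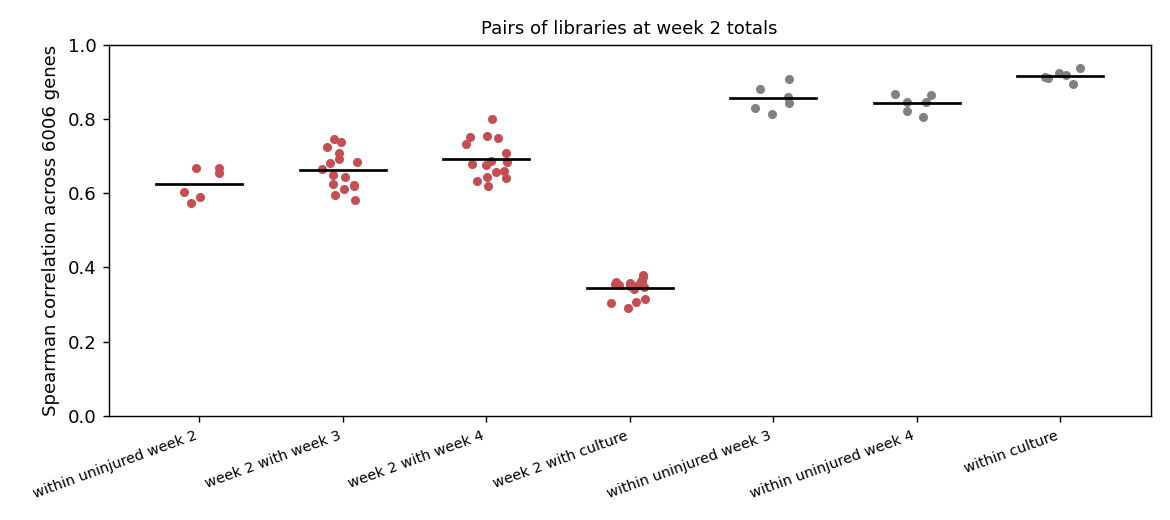
Spearman correlation (vertical axis) of log2 CPM across 6006 genes for each pair of libraries, all at the week 2 totals; each point is 1 pair and each bar the mean of the set. Red sets hold a week 2 library: pairs with culture lie between 0.291 and 0.380, below the other sets drawn, while pairs within culture lie between 0.895 and 0.936.

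The most abundant genes gave the same order. Of the 100 identifiers with the highest mean share of counts in uninjured week 2, 72 were also among the 100 highest of uninjured week 3, 79 among those of week 4 and 46 among those of culture. CPM is not corrected for gene length, so this ranks counts and not transcript numbers.

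Culture was compared with week 2 exposure gene by gene to ask how the RNA of the uninjured week 2 libraries differed from that of the culture libraries. At full depth, 4401 of 11523 genes tested (38.2%) differed, 1881 higher (16.3%) and 2520 lower (21.9%) in uninjured week 2 (adjusted p under 0.05 in the quasi-likelihood test of edgeR). Of the genes called, 1709 exceeded culture by 2-fold or more and 582 by 8-fold or more. Lower genes include 270 with 0 counts in every week 2 library, for which 3 counts over the group were taken as the floor. On that basis 2215 lay below culture by 2-fold or more and 445 by 8-fold or more. The median log2 fold change was 2.07 among genes called higher and -1.79 among genes called lower, and -0.26 over all genes tested. The fit used 1 spread for both groups, a biological coefficient of variation of 21.0%, below the 58.0% within week 2. The 2 values also rest on different genes, 11523 in the fit and 7166 within week 2. A limma voom fit with 1 weight per group, chosen after the data were seen, called 1183 higher and 1985 lower.

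With culture thinned to the week 2 totals, the balance of directions turned. There 1578 of 4632 genes tested (34.1%) differed, 909 higher (19.6%) and 669 lower (14.4%) in week 2 (edgeR adjusted p under 0.05). Genes called higher made up 42.7% of the calls at full depth and 57.6% after thinning. The median log2 fold change over all genes tested was -0.02 after thinning. At full depth but over the same 4632 genes, 2076 were called, 1108 higher and 968 lower. After thinning, 822 of the called genes exceeded culture by 2-fold or more and 594 lay below it by as much. The median log2 fold changes were 1.92 among genes called higher and -1.86 among genes called lower. Across 9 further random draws of the thinning, 1564 to 1619 genes were called, 888 to 931 of them higher. The depth of culture and the genes admitted changed together between the fits, and the balance also turned with the genes admitted alone. It turned with depth alone as well. With culture thinned but over the 11523 genes kept at full depth, 2581 were called, 1413 higher and 1168 lower.

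**Figure D3:**
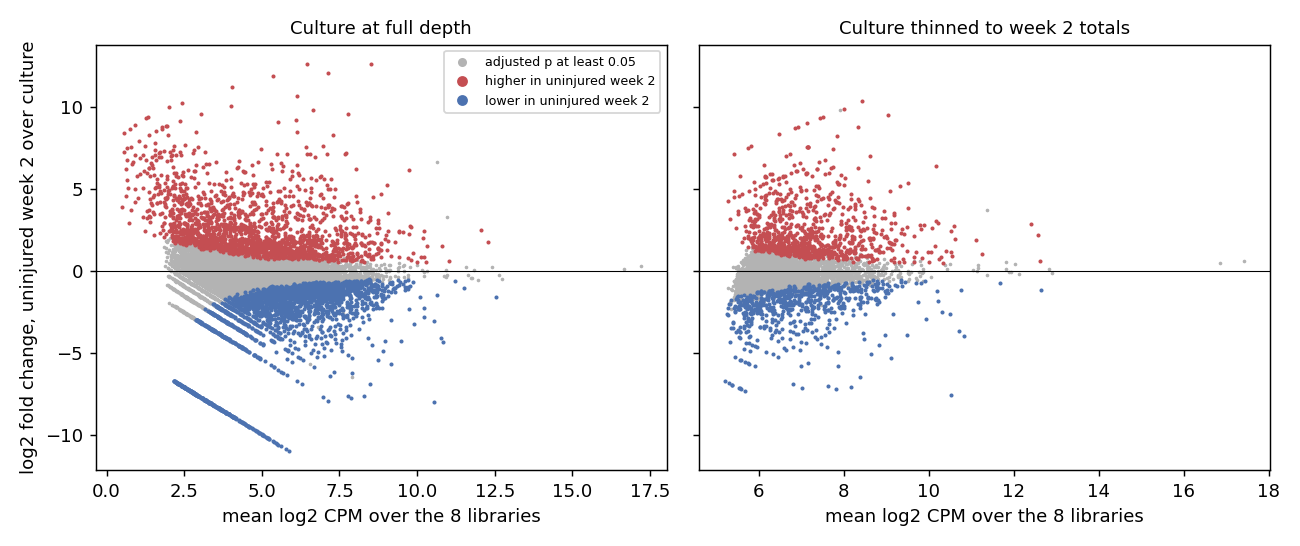
Log2 fold change of uninjured week 2 over culture (vertical axis, positive means higher in week 2) against mean log2 CPM over the 8 libraries, with culture at full depth (left) and thinned (right); each point is 1 gene, red higher and blue lower at an edgeR adjusted p under 0.05, grey not called. Blue bands along slanted lines in the left panel are genes with 0 or few week 2 counts, 270 of them at 0, whose fitted fold changes depend on a prior count; these bands are thin in the right panel, where 8 called genes are at 0.

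Calls were spread over all levels but rested on unequal counts. Genes called higher had a median of 68 counts over the 4 week 2 libraries and 281 over culture, and 1727 of 1881 were seen in every week 2 library. Genes called lower had a median of 16 counts over week 2 and 1382.5 over culture, and 1346 of 2520 had under 20 week 2 counts. After thinning, all 909 genes called higher were seen in every week 2 library. A gene low in thinned culture could pass the low count filter only through the week 2 libraries. That presence thus follows at least in part from the filter and is no separate support. The share over all genes tested is not given for it in either fit. The 909 genes had medians of 165 counts in week 2 and 50 in culture. Genes called lower after thinning had medians of 35 in week 2 and 187 in culture.

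Week 2 and culture libraries did not overlap in CPM for 1383 of the 1881 genes called higher and 2415 of the 2520 called lower. Over all 11523 genes tested, 38.2% were called, 12.8% lay higher without overlap and 26.4% lay lower without overlap. After thinning, 789 of the 909 genes called higher and 632 of the 669 called lower were without overlap. Over all 4632 genes tested there, 34.1% were called, 18.9% lay higher without overlap and 17.4% lower. In 291 of the 1881 genes called higher, 1 library held at least 50% of the summed week 2 CPM. Replicates 1 to 4 accounted for 83, 86, 51 and 71 of these, so the library that held most of the CPM was not always the same. Among genes at least 8-fold higher the number was 94 of 582. The share over all genes tested is not given for this measure.

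By level, the share of genes called was highest among the most abundant genes in both fits. Genes were divided into 4 equal bins by mean log2 CPM. From the lowest to the highest bin, 32.2, 30.6, 39.0 and 51.0% were called at full depth. After thinning the shares were 21.8, 26.9, 36.9 and 50.6%. In the highest bin, 472 genes were higher and 996 lower at full depth, while 350 were higher and 236 lower after thinning. In the lowest bin at full depth, with a median of 9 week 2 counts a gene, 624 genes were higher and 303 lower. In the lowest bin after thinning, with a median of 35 counts, 88 were higher and 165 lower. The direction with more genes at low and at high levels was thus opposite between the fits, whose bins hold different genes.

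**Figure D4:**
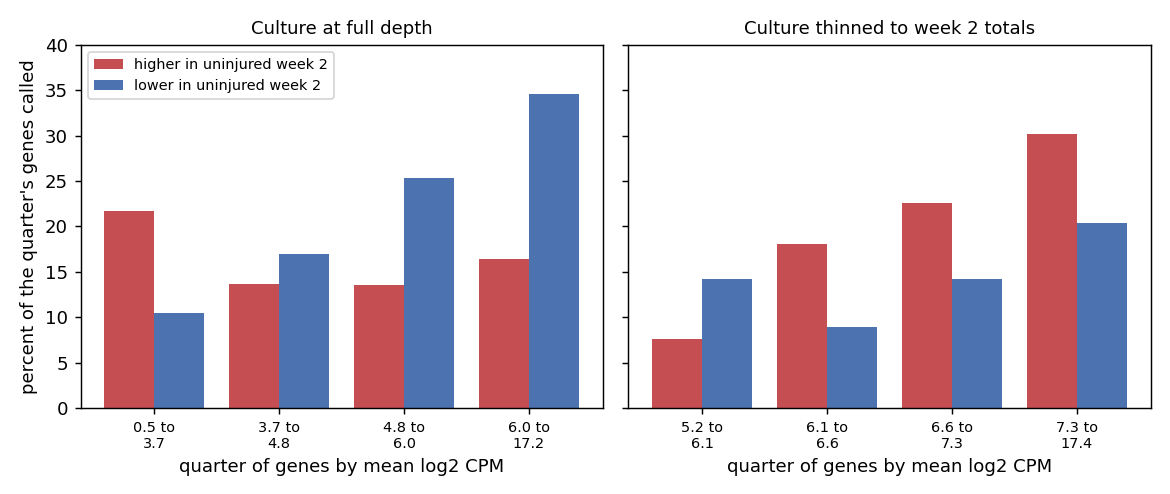
Percentage of genes called higher (red) or lower (blue) in uninjured week 2 than in culture, in each of 4 equal bins of genes by mean log2 CPM (horizontal axis, range of the bin), with culture at full depth (left) and thinned (right). Lower genes prevail in the highest bin on the left (996 against 472 higher) and higher genes on the right (350 against 236 lower).

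The rule for named genes asked for an adjusted p under 0.05, no overlap between groups, a mean log2 CPM of at least 4 and, for genes that rose, at least 20 week 2 counts. It was met by 885 genes that rose and 2001 that fell. The 2 with the largest fitted log2 fold change each way are given by identifier, and their values across groups are a description of genes chosen for this difference.

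ENSRNOG00000029886 had 213.7, 428.6, 236.5 and 2429 CPM in uninjured week 2 replicates 1 to 4, against 0, 0.191, 0.182 and 0 CPM in culture. All week 2 libraries were high, and replicate 4 lay far above the others. From 782 counts in week 2 and 2 counts in culture, the ratio of pooled counts, each over the pooled total of its group, was 8280, with an exact 95% counting interval of 2290 to 68500 (edgeR adjusted p = 0.000448 at full depth and 0.00229 with culture thinned). Replicate 4 held 533 of the 782 counts, and without it the ratio was 3230, with an interval of 885 to 26800. Its CPM in libraries outside this comparison, scaled over all 28, ran between 44.6 and 79.0 for uninjured week 3 and between 40.6 and 144.7 for week 4. In injured cord it ran between 78.0 and 294.7 at week 2, 0.765 and 144.2 at week 3, and 12.4 and 154.5 at week 4. Week 2 uninjured libraries, at 209.9 to 2473 on that scale, lay above both later uninjured weeks. With both groups at week 2 depth, the log2 fold change over week 3 was 4.43 (SE 0.988, edgeR adjusted p = 0.0588). Over week 4 it was 3.27 (SE 0.965, edgeR adjusted p = 0.328), and neither passed the threshold.

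ENSRNOG00000058105 had 97.6, 173.0, 57.9 and 747.3 CPM in uninjured week 2 replicates 1 to 4, against 0 counts in all 4 culture libraries. Replicate 4 again lay far above the others. With a floor of 3 counts over the culture group and pooled totals it was at least 1780-fold higher, from 252 week 2 counts (edgeR adjusted p = 0.00156 at full depth and 0.00455 with culture thinned). Replicate 4 held 164 of these counts, and without it the bound was 761-fold. Without week 2 replicate 2 the edgeR adjusted p was 0.0687, so the call did not hold there, although culture stayed at 0. On the scale of all 28 libraries it had 11.2 to 21.6 CPM in uninjured week 3 and 17.0 to 36.7 CPM in uninjured week 4. In injured cord it had 0 to 61.6 CPM at week 2, 1.07 to 56.8 at week 3 and 4.39 to 37.4 at week 4. Its uninjured week 2 range on that scale, 56.4 to 760.9 CPM, overlapped those of injured weeks 2 and 3. Over uninjured week 3 at week 2 depth its log2 fold change was 4.48 (SE 0.927, edgeR adjusted p = 0.0227), under the threshold. Over week 4 the value was 3.54 (SE 0.753, edgeR adjusted p = 0.107). Both genes that rose were chosen on these same week 2 values, a choice that favours high ones. Their p-values against weeks 3 and 4 are therefore not independent of that choice.

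ENSRNOG00000010763 had 0 counts in all 4 uninjured week 2 libraries, against 78.2, 78.0, 93.1 and 81.0 CPM in culture. The culture libraries lay close together, with 1918 counts in all. With a floor of 3 counts over the week 2 group it lay at least 30.2-fold below culture (edgeR adjusted p = 5e-06 at full depth and 6.2e-05 with culture thinned). It had 0.623 to 1.86 CPM in uninjured week 3 and 1.82 to 7.10 CPM in uninjured week 4. In injured cord it had 0 to 32.1 CPM at week 2, 64.0 to 92.9 at week 3 and 14.8 to 28.2 at week 4.

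ENSRNOG00000011800 had 0 counts in all 4 uninjured week 2 libraries, against 84.0, 73.0, 81.9 and 68.1 CPM in culture. Against the same floor it lay at least 27.9-fold below culture (edgeR adjusted p = 6.88e-06 at full depth and 0.000123 with culture thinned). Levels were 0.60 to 3.97 CPM in uninjured week 3 and 1.89 to 5.40 CPM in uninjured week 4. In injured cord they were 0 to 2.19 CPM at week 2, 222.2 to 310.9 CPM at week 3 and 99.8 to 152.1 CPM at week 4, the ranges at weeks 3 and 4 lying above that of culture, 74.2 to 91.5 CPM on the same scale. Both genes that fell were too low to be tested between the uninjured weeks at week 2 depth.

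**Figure D5:**
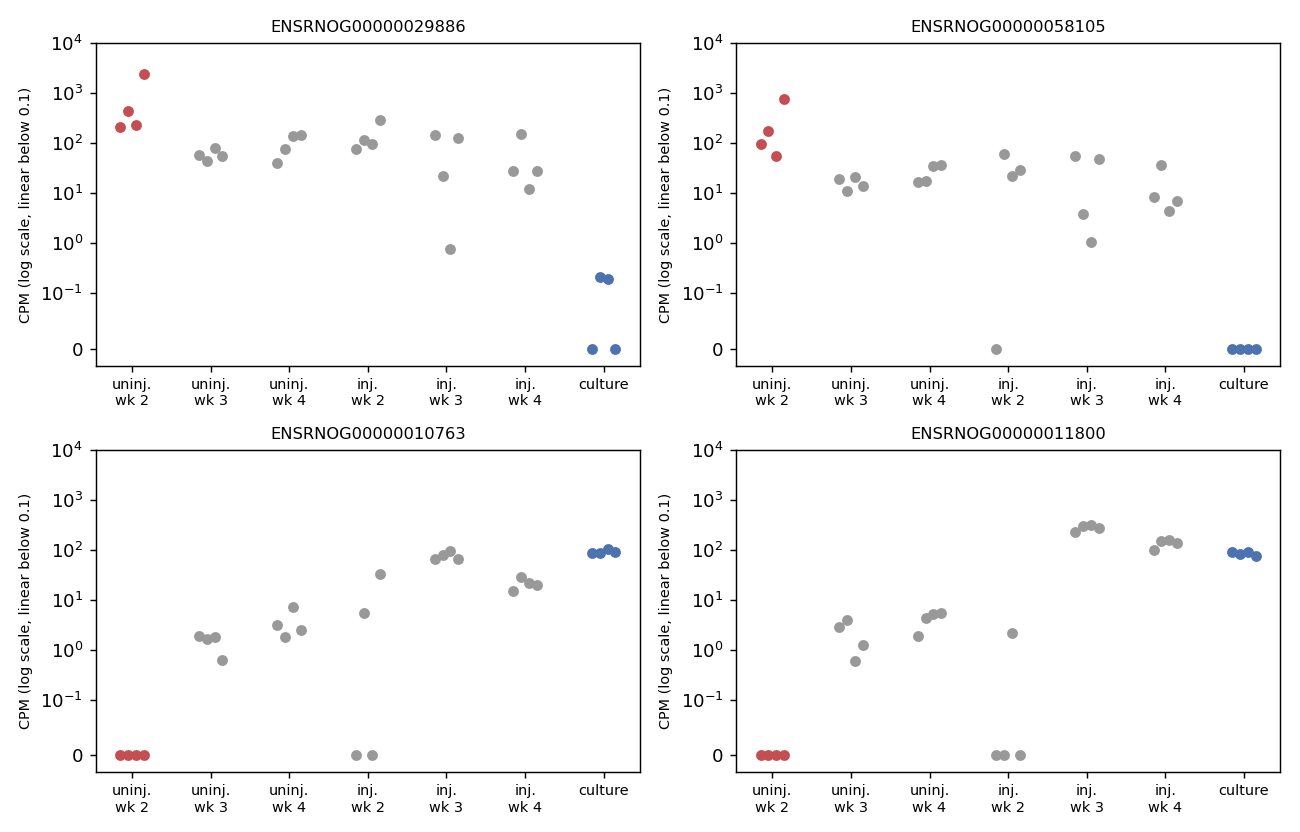
CPM of the 4 identifiers (vertical axis, log scale above 0.1 and linear below, scaled over all 28 libraries) in each library of uninjured weeks 2 to 4, injured weeks 2 to 4 and culture; each point is 1 library, red for uninjured week 2, blue for culture and grey for groups outside this comparison. The upper 2 have 0 or near 0 in culture and their highest library in uninjured week 2 replicate 4, at 2473 and 760.9 CPM; the lower 2 have 0 in all 4 uninjured week 2 libraries.

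The genes with the largest changes were chosen on uninjured week 2 and culture, so only their levels in the other groups are free of that choice. The 582 genes at least 8-fold higher had a median CPM of 57.3 in uninjured week 2 and 3.04 in culture. In the libraries that did not choose them the median was 70.8 in uninjured week 3, 58.0 in uninjured week 4, 53.4 in injured week 2, 5.32 in injured week 3 and 29.4 in injured week 4. Medians of single libraries ran from 65.0 to 78.0 in uninjured week 3 and from 2.30 to 6.88 in injured week 3, without overlap. The 445 genes at least 8-fold lower had a median CPM of 1.99 in uninjured week 2 and 38.0 in culture, against 3.62 in uninjured week 3, 4.77 in uninjured week 4, 4.90 in injured week 2, 22.7 in injured week 3 and 10.5 in injured week 4. Over all 11523 genes tested, group medians lay between 24.3 and 29.5 CPM. The comparisons of uninjured weeks with culture share the culture libraries, and these values are set side by side only.

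Genes at 0 in one group were counted on the raw table. Against 23741368 culture counts, a sum of 0 allows up to 0.126 CPM (3 counts over the group). Of 12726 genes at 0 in culture, 78 had at least 10 counts in uninjured week 2, with a median of 12 and a highest sum of 252. Of these, 13 were seen in all 4 week 2 libraries, 19 in 3, 24 in 2 and 22 in 1, and 10 had enough counts to be tested. In libraries not used to choose them, 53 (67.9%) had counts in uninjured week 3, 75 (96.2%) in uninjured week 4 and 44 (56.4%) in the shallow injured week 2 group. Among all genes at 0 in culture the shares were 14, 36.2 and 7.41%. Of those 12726 genes, 11220 were also at 0 in week 2 and 6584 were at 0 in all 28 libraries. A higher share among the 78 thus follows at least in part from their choice for week 2 counts.

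In the other direction, 1120753 week 2 counts allow up to 2.68 CPM for a sum of 0. From culture levels, 7130 genes were predicted to have at least 20 counts over the week 2 group, and 65 of them had 0. Their predicted sums ran from 20.6 to 90.7 counts, with a median of 32.3. At the greater depth of the later weeks 62 of the 65 (95.4%) had counts in uninjured week 3 and 63 (96.9%) in uninjured week 4. In the shallow injured week 2 group 42 (64.6%) had counts. Among all 15935 genes at 0 in uninjured week 2 the shares were 26.1, 44.8 and 10.3%, but 11220 of those were also at 0 in culture. A sum of 0 at week 2 allows any level from none up to the floor.

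Week 2 was set against the later uninjured weeks, all at the week 2 totals, to show where it differs from them. Against uninjured week 3, 157 of 4544 genes tested (3.46%) differed, 89 higher (1.96%) and 68 lower (1.5%) in week 2 (edgeR adjusted p under 0.05). The log2 fold changes of the genes called higher ran from 1.03 to 8.78, and of those called lower from -2.68 to -0.97. Of the 89, 79 did not overlap between groups, and in 7 of the 89 a single week 2 library held at least 50% of the week 2 CPM. All 68 lower genes were without overlap. Over all 4544 genes tested, 4.62% lay higher and 6.07% lower without overlap. Genes called higher had medians of 175 counts in week 2 and 46 in week 3, and those called lower 134 in week 2 and 401 in week 3. Leaving out 1 library in turn gave 78 to 201 calls. The count fell to 78 without week 3 replicate 2 and to 91 without week 3 replicate 4. DESeq2 called 241.

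Against uninjured week 4, 5 of 4389 genes (0.114%) differed, all higher in week 2 (edgeR adjusted p under 0.05), and 434 had an unadjusted p under 0.05. Their week 2 sums were 99, 783, 175, 169 and 510 counts, against 2, 261, 1, 1 and 5 in thinned week 4. Log2 fold changes were 5.67, 2.03, 7.21, 7.18 and 6.98 (edgeR adjusted p = 0.00033, 0.0197, 1.01e-05, 5.11e-05 and 3.88e-06), and every one of the 5 had at least 18 counts in each week 2 library. Those with 1 to 5 counts in thinned week 4 could pass the filter only through the week 2 libraries. Their presence in each of those libraries is therefore no separate support. These 5 were also present in the injured week 2 libraries, with 42 to 878 counts a gene over the group. Of the 5, 3 are among 25 genes, described under other observations, that lay above all other libraries in both week 2 groups. For that set week, depth and any shared preparation cannot be told apart. Culture held 515, 9516, 40, 6 and 15 counts of the 5 genes at full depth. Those sums are out of 23741368 counts, against 1120753 in week 2, so they cannot be set directly beside the week 2 sums. The count was 12 without week 2 replicate 1, 11 without week 2 replicate 3, 22 without week 2 replicate 4 and 29 without week 4 replicate 3, and 38 with DESeq2. The coefficient of variation in this fit was 34.4% over the 4389 genes tested, beside 58.0% within week 2 over 7166 genes. Few calls beside such variation do not show that weeks 2 and 4 were alike.

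By the same procedure at the same depth, uninjured week 3 differed from thinned culture for 2904 of 4968 genes (58.5%) and uninjured week 4 for 2768 of 4840 (57.2%), beside 1578 of 4632 (34.1%) for week 2. The coefficient of variation in those fits was 18.3% for week 3, 16.4% for week 4 and 31.5% for week 2. These counts share the culture libraries, and whether the smaller week 2 count goes with its larger spread was not tested.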

How the data were processed

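RNA of 28 libraries was sequenced from a stranded total RNA kit for very small inputs, per the labels' protocols. The authors deposited 1 table of raw counts for 32545 rat Ensembl identifiers, with no normalization. Tools listed without roles in the submitters' processing notes are the aligner STAR 2.5.1, the counter featureCounts 1.5.1, StringTie 1.3.3, Picard, FastQC 0.11.5 and Trim Galore 0.4.1. Those notes name GRCm38, a mouse build, although the identifiers are rat, so which genome was used is unsettled. Not given in the sources used here: strand setting, annotation release and duplicate handling. Counts of near-identical or overlapping genes are therefore uncertain.

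The 8 libraries were fitted alone with edgeR 4.0.16 (R 4.3.3): filterByExpr by group, TMM factors, robust quasi-likelihood F test, Benjamini-Hochberg adjustment over all genes kept and 6 residual degrees of freedom. Fold changes are uninjured week 2 over the other group. Standard errors are the log2 fold change divided by the root of F. Thinning was binomial, each library to the total of the week 2 library with the same number, which pairs nothing; 10 draws were made. Alternatives included DESeq2 1.42.0 and limma 3.58.1 voom. The fits were run on simulated data with the same spread in both groups. That run does not cover the unequal spread of week 2 and culture. Comparisons, lists and rules were chosen with earlier results of these data known. Named genes follow the rule given in the text, without its symbol part, and neither the 25 gene lists nor the alternative leaving out mitochondrial and ribosomal genes was run because no identifier had a symbol.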

Additional observations from a re-analysis of the deposited data

Results flagged for a closer look

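Dixon's ratio, computed for 22 sets of 4 libraries, passed its critical value in 4 sets. Chance would give about 1.1 if the sets were independent and unselected. They are not, since the identifiers were chosen on their week 2 values and measures of the same library are linked. No conclusion is drawn from the number of sets flagged. ENSRNOG00000029886 stood at 2429 CPM in uninjured week 2 replicate 4, where the other libraries of the group had 213.7 to 428.6 CPM. ENSRNOG00000058105 stood at 747.3 CPM in the same library, where the others had 57.9 to 173.0 CPM. Culture replicate 1 had 3509 genes with at least 10 counts at equal totals, where the other culture libraries had 3687 to 3699. The same library held 26.0% of its counts in the 2 most abundant identifiers, where the others held 21.73 to 22.03%.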

How the results depend on the processing

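The full-depth count of 4401 genes was 7275 (4035 higher) with no low count filter, 1578 with culture thinned, 2076 over only the genes kept after thinning, and 2428 to 5022 when 1 library was left out. Each of the 4 lowest of those, 2428, 2471, 2468 and 2494, left out a culture library and tested 7112 to 7153 genes instead of 11523, since the filter depends on group size and median depth; more were then higher than lower. The other 12 settings were within 1.5 times, with 37.3 to 50.4% of calls higher. With culture thinned, 1578 calls became 2581 over the genes kept at full depth (1413 higher), and 1336 to 1990 when 1 library was left out; genes called higher stayed in the majority in every setting run with thinned culture. Against week 3, 157 calls became 496 at full depth, 241 with DESeq2, 277 with limma voom and 78 to 201 when 1 library was left out. Against week 4, 5 calls became 57 at full depth, 38 with DESeq2, 13 with limma voom, 4 to 29 when 1 library was left out and up to 9 over thinning draws. The cause of these moves was otherwise not tested. The 4 identifiers kept their direction in all settings, but their choice for large changes without overlap left little room for another outcome. Their fitted sizes moved: the log2 fold change of ENSRNOG00000010763 was -10.97 in the main fit. It was -5.44 in limma voom with 1 weight per group. No paired analysis was possible because replicate numbers follow accession order and pair no libraries. Depth is 1 limit at week 2, where a gene with a sum of 0 may be present at up to 2.68 CPM, and the spread of 58.0% between week 2 replicates is another.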

Other observations

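A set of genes was higher in both week 2 groups than elsewhere, a pattern noticed after the data were seen. The deposited table holds 32545 identifiers, 6584 of them at 0 in all 28 libraries, so the sets below are a small share. For 25 genes the lowest CPM among the 8 week 2 libraries, uninjured and injured, exceeded the highest among the other 20 libraries, and for 13 of them by more than 4-fold. The same count was 0 for week 3, 1 for week 3 when injured week 3 replicate 3 was left out, and 0 for week 4. The median over these 25 genes of the group mean was 40 CPM in uninjured week 2 and 31.7 CPM in injured week 2. It was 0.307 CPM in uninjured week 3, 0.826 in injured week 3, 0.514 in uninjured week 4, 0.647 in injured week 4 and 0.321 in culture. The genes were chosen for lying above all other libraries, so these levels are a description. Single genes of the set reached group means of 18 CPM in uninjured week 4 and 17.6 CPM in culture. In the other direction, 145 genes lay below all other libraries in all 8 week 2 libraries, of which 40 had a count in any of them and the rest had 0 throughout, against 1 gene for week 3 and 0 for week 4. Week 2 libraries are also the shallowest, at 84532 to 446331 counts, and the labels do not say whether they were prepared with the others, so week, depth and any shared preparation cannot be told apart.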
